A study of Mus musculus with 4 samples.

Results

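The genes App, Aplp1, Aplp2, Mapt, Psen2, Bace1, Apoe and Sorl1 are 8 of the 21951 protein-coding genes of the mouse annotation (GENCODE M21, genome build mm10). They were chosen by name as genes of amyloid and tau biology, and their m6A peaks were those whose position covered at least 1 bp of an annotated exon. The peaks come from m6A-seq of whole brain of 4-week-old C57BL/6J mice, described by the series as Prrc2a flox/flox, with no Cre driver and no number of animals named in the labels. The 4 samples are 2 m6A immunoprecipitations (IP) and 2 inputs, called biological replicates in the methods of the study, and all share genotype, strain, age and tissue, so that the comparison made here is between replicate 1 and replicate 2. The authors called peaks for each IP with the matching input as control, and every peak in the 2 lists has a position and a fold enrichment (IP divided by input, linear). Read numbers are not in these lists, so the depth behind each value is unknown, and no p-value can be formed from 2 lists.

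m6A is a methyl mark on the N6 position of adenosine in RNA, placed mostly at adenosines within the motif DRACH, in which D excludes C, R is a purine and H excludes G, and read by proteins that act on splicing, translation and decay. In mRNA it is known for lying near stop codons, in long internal exons and in 3′UTRs. Amyloid-beta is cut from the amyloid precursor protein App by Bace1 and then by gamma-secretase, whose catalytic subunit can be Psen2, while Sorl1 sorts App between endosomes and the Golgi. Aplp1 and Aplp2 are paralogs of App, Apoe carries lipids between brain cells and binds amyloid, and Mapt encodes the microtubule protein tau.

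Sequences around the adenosines of GGAC are given first, because they show which motif lay inside the peaks that these genes share between replicates and which lay outside. Each window holds 25 bases of the spliced transcript, 5′ to 3′ (GENCODE M21 transcripts, mm10), with GGAC or GGACT in capitals. Only these 2 forms, GGACT and the shorter GGAC that it contains, were located site by site, on the transcript strand. GGAC followed by G was counted too, although it is not a DRACH site, and the App exon 6 window is of this kind. The following 12 windows are examples from the 50 GGAC sites, 13 of them GGACT, that lay within shared peaks. They were picked after the values were seen, with at least 1 for each gene.
App exon 6, coding, minus strand, chr16:85056422-85056446: tggaggatggGGACgaggtggagga
Aplp1 exon 17, 3′UTR, minus strand, chr7:30435110-30435134: gtcccacaaaGGACctcttcacctt
Aplp2 exon 1, coding, minus strand, chr9:31211700-31211724: gcggccaccgGGACcgcggccgctg
Aplp2 exon 5, coding, minus strand, chr9:31170503-31170527: ctgttgactcGGACTcgactatgtc
Bace1 exon 9, 3′UTR, plus strand, chr9:45860766-45860790: ttagtgatagGGACTgcagactcaa
Psen2 exon 11, coding, minus strand, chr1:180227639-180227663: catcacctttGGACTcatcttctac
Sorl1 exon 48, 3′UTR, minus strand, chr9:41965363-41965387: acagagatatGGACTaggttacagg
Sorl1 exon 48, 3′UTR, minus strand, chr9:41965161-41965185: ggacttccatGGACTgaacatggat
Apoe exon 4, coding, minus strand, chr7:19697077-19697101: cactgatggaGGACactatgacgga
Mapt exon 10, coding, plus strand, chr11:104328111-104328135: tcgacatggtGGACTcaccacagct
Mapt exon 10, 3′UTR, plus strand, chr11:104328703-104328727: gtgtgagtggGGACTgaaacagcga
Mapt exon 10, 3′UTR, plus strand, chr11:104330701-104330725: acagcttcagGGACTaggcctttga
For contrast, these 4 windows are examples from the 41 GGACT sites outside shared peaks, and they lay in no exonic peak of either list.
App exon 17, coding, minus strand, chr16:84962809-84962833: cgccatcatcGGACTcatggtgggc
Aplp1 exon 16, coding, minus strand, chr7:30435487-30435511: aaaccctatgGGACTatcagccatg
Apoe exon 1, 5′UTR, minus strand, chr7:19699018-19699042: tggaggctaaGGACTtgtttcggaa
Sorl1 exon 30, coding, minus strand, chr9:42001485-42001509: acgactgtggGGACTggtctgatga

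All 8 genes had an exonic peak that overlapped a peak of the other replicate, where 45.6% of all protein-coding genes did. A shared interval is the stretch that a pair of overlapping peaks has in common, and the 8 genes had 33 of them. Mapt had 9, App 7, Aplp2 5, Aplp1, Bace1 and Apoe 3 each, Psen2 2 and Sorl1 1. Thus 7 of the 8 genes had at least 2 shared intervals, against 27.0% of all protein-coding genes. Both shares over all genes count every annotated gene, whether or not it was expressed in brain, and the lists do not show expression. Relative to exon length the order differed. Apoe carried 1.40 shared intervals per kb of annotated exon, Mapt 1.20 and Aplp1 0.994, whereas App carried 0.539 and Sorl1 0.0883, beside a median of 0.400 over all genes with a shared interval.

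The 39 exonic peaks of these genes in replicate 1 included 33 that were shared (84.6%, 95% Wilson interval 70.3 to 92.8), against 67.8% of all exonic peaks of that list. In replicate 2, 31 of 43 were shared (72.1%, 57.3 to 83.3), against 76.8%. These intervals cover counting error only. The 6 unshared peaks of replicate 1 had fold enrichments of 1.29 to 2.87 (median 1.53), and the 12 of replicate 2 had 1.12 to 1.76 (median 1.32). The unshared peaks were thus mostly weak in the list that held them.

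**Figure D1:**
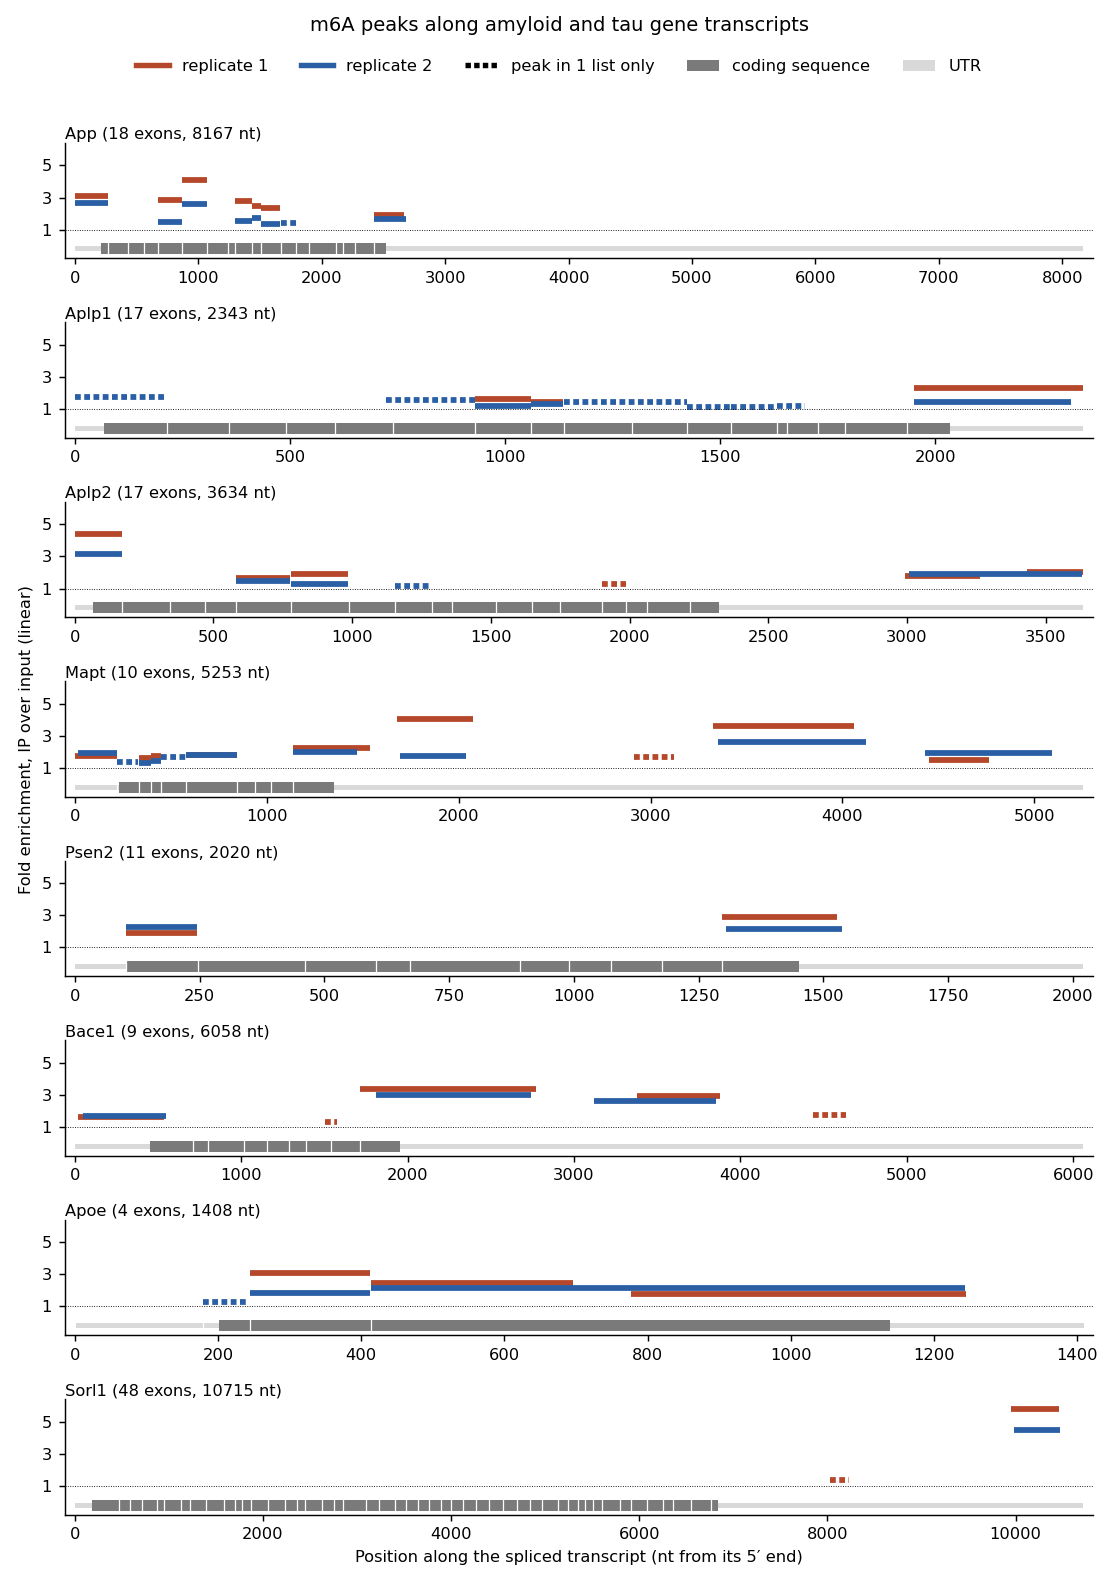
Exonic m6A peaks of replicate 1 and replicate 2 along 1 spliced transcript per gene, with position in nt on the x axis and the fold enrichment of each peak as its height on a linear axis. Thin grey bars are UTRs, thick bars coding sequence and white lines exon borders, and the Sorl1 peak of the distal 3′UTR is the highest in both replicates at 5.83 and 4.48, while peaks in exons of other transcripts are left out.

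Fold enrichment was modest in most of these peaks. Over the 31 pairs of peaks that were each other's best partner, the median was 2.24 in replicate 1 (1.46 to 5.83) and 1.81 in replicate 2 (1.17 to 4.48). Over all 20997 matched exonic pairs of the lists the medians were 2.98 and 2.30. Both replicates reached 2 in 9 of the 31 pairs (29.0%), where 61.5% of all pairs did so, and both stayed below 2 in 12. Replicate 1 had the higher value in 24 of the 31 pairs (77.4%), close to the 78.2% of all pairs. The median log2 difference, replicate 1 minus replicate 2, was 0.31 (SD over pairs 0.38), and over all pairs it was 0.37 (SD 0.47). Lower values in replicate 2 were thus seen over the whole list, and not in these genes alone.

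**Figure D2:**
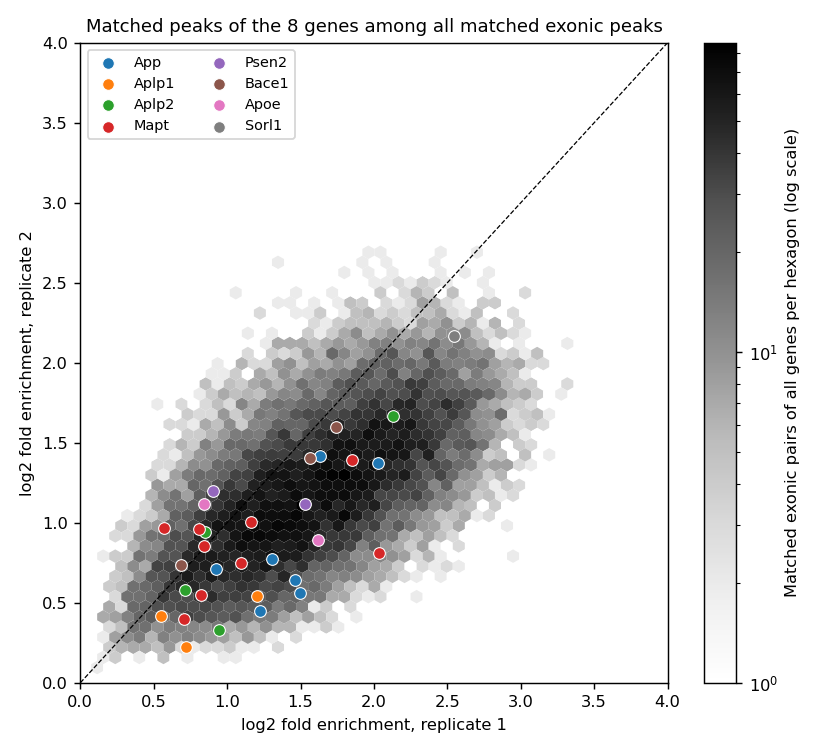
Fold enrichment of matched peaks in replicate 1 (x) and replicate 2 (y), both on a log2 scale, with all 20997 matched exonic pairs as grey hexagons and the 31 pairs of the 8 genes as coloured points. Of the coloured points 24 lie below the dashed line of equal values, and the Sorl1 point lies at the upper right, away from the rest.

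The plot along transcripts shows where the peaks sat. By the middle of each interval, 3 of the 32 that could be placed lay in a 5′UTR, 19 in coding sequence and 10 in a 3′UTR. All placed intervals were divided in a similar way, with 9.26% in a 5′UTR, 61.8% in coding sequence and 28.9% in a 3′UTR. A shared interval covered the stop codon in 6 genes (App, Aplp1, Mapt, Psen2, Bace1 and Apoe), where 51.1% of the genes with a placed shared interval had one there. Aplp2 and Sorl1 had none at the stop codon. A shared interval covered the start codon in 4 genes (App, Aplp2, Psen2 and Bace1), where 22.3% of such genes had one. On the transcript with the longest coding sequence of each gene, 5 of 29 placed intervals had their middle within 200 nt of the stop codon (17.2%, Wilson interval 7.60 to 34.5), against 23.0% of all placed intervals. With Mapt on its longest complete transcript, which adds its UTR intervals, it was 5 of 32 (15.6%).

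App, the precursor of amyloid-beta, had 7 peaks in replicate 1 and 8 in replicate 2. Its shared intervals lay over exons 1, 5, 6, 9, 10, 11 and 18 of its 18-exon transcript. By the lower of both values, the strongest was the start-codon interval of exon 1 (chr16:85173489-85173809), with 3.10 in replicate 1 and 2.68 in replicate 2. Exon 6 had the highest value of replicate 1, 4.08, and 2.59 in replicate 2, with a single GGAC in it. That GGAC is followed by G and is thus not a DRACH site, whereas the interval held 2 DRACH sites. The 2 replicates thus disagreed on which of these exons ranked first.

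Exons 5, 9, 10 and 11 of App had lower values than exon 6 in both replicates. Exon 5 had 2.83 in replicate 1 and 1.47 in replicate 2. Exon 9 had 2.76 and 1.56, and exon 10 had 2.47 and 1.71. Exon 11 had 2.34 and 1.36, so that all 4 were above 2 in replicate 1 and below 2 in replicate 2. At the stop codon, in exon 18, the interval chr16:84955183-84955432 had 1.90 and 1.64. Like exons 5, 9, 10 and 11, it was below the median of all matched pairs in both replicates. The only peak of App in 1 list was that of replicate 2 over exon 12, at 1.39.

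Exons 7 (168 nt) and 8 (57 nt) are skipped in the 16-exon transcript App-201, the form known from neurons. Neither list had a peak over them, and neither exon holds a GGAC, although peaks lay over exons 5 and 6 before them and 9, 10 and 11 after them. The lists hold no reads, so how often these exons were included in the mRNA is not known here. No peak of either list lay in the 5646-nt 3′UTR of App beyond the peaks at the stop codon. The transcript has 8 GGACT sites, of which 5 are in the 3′UTR and the others in exons 14, 15 and 17, and no shared interval covered any of them. Its shared intervals held 6 of 26 GGAC sites and covered 15.7% of the transcript.

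Aplp2, the widely expressed paralog, had its strongest interval in exon 1 as well, at chr9:31211599-31211914 over the start codon, with 4.37 in replicate 1 and 3.18 in replicate 2. Exon 5 had 1.64 and 1.497, and exon 6 had 1.92 and 1.26. In the 3′UTR 1 peak of replicate 2 at 1.92 spanned 2 peaks of replicate 1 at 1.80 and 2.03. Exon 1 was above the level of the other Aplp2 exons in both replicates, and the others did not keep 1 order. The strongest peak in 1 list was 1.30 in replicate 1, over exon 14.

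Aplp1, the paralog restricted to nervous tissue, had 3 peaks in replicate 1 and 9 in replicate 2. More peaks in replicate 2 than in replicate 1 were found for 23.9% of the genes with a peak in either list, and among the 8 genes also for App and Mapt. The strongest shared interval of Aplp1 covered the stop codon (chr7:30435009-30435375), with 2.30 in replicate 1 and 1.46 in replicate 2. Exon 7 had 1.65 and 1.17, and exon 8 had 1.46 and 1.34. By the lower value of its strongest interval, Aplp1 stood at percentile 3.19 of the genes with a shared interval. Its 6 further peaks of replicate 2 had 1.12 to 1.76, the highest over exon 1, and none had a partner.

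The 3 paralogs were then set beside each other by exon, an arrangement made after the peaks had been seen. In an alignment of coding sequences, App shared 62.8% of aligned bases with Aplp1 and 67.8% with Aplp2. Exons 5 and 6 had shared peaks in both App and Aplp2, as did exon 1 and the last exon, which were matched by order. The last exon of Aplp1 had one too. App exon 9 and Aplp1 exon 7 both had shared peaks, with 61.0% identical bases over 105 aligned nt. Aplp2 exon 8, their counterpart, had only a replicate 2 peak at 1.15. App exon 10 and Aplp1 exon 8, both 75 nt long with 68.0% identical bases, had shared peaks, while Aplp2 exon 9, also 75 nt and 76.0% identical to App, had none. Exon 10 made up only 20.2% of the App interval, and exon 8 only 23.1% of the Aplp1 interval. App exon 11 had a shared peak, its Aplp1 counterpart only a replicate 2 peak at 1.47, and its Aplp2 counterpart none at 74.2% identity. Aplp2 exon 7, of 168 nt like App exon 7 and 70.9% identical over the aligned bases, also had no peak in either list. Peaks were thus found over some of the matching exons, and the more similar sequence was not always the one with the peak.

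**Figure D3:**
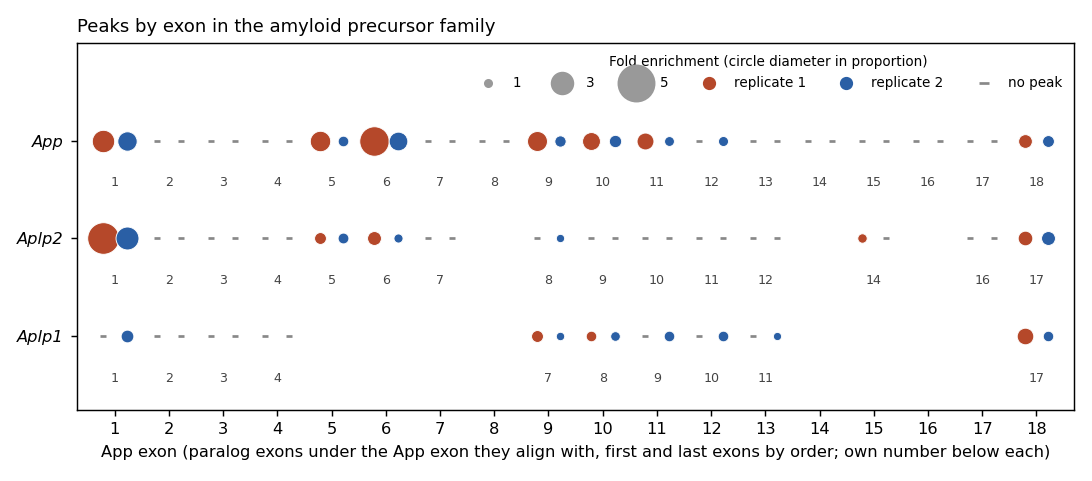
Fold enrichment of peaks by exon in App, Aplp2 and Aplp1, with paralog exons placed under the App exon of which at least 75% aligned and with first and last exons placed by order. The circle diameter is in proportion to the fold enrichment and dashes mark exons without a peak, as for exons 7 and 8 of App and exon 7 of Aplp2.

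Bace1, the beta-secretase, had 2 strong shared intervals in its long 3′UTR. The first (chr9:45860154-45861082) began in the coding part of exon 9, covered the stop codon, and had 3.35 in replicate 1 and 3.03 in replicate 2. It held 2 GGACT sites, 483 and 699 nt after the stop codon. The second had its middle 1661 nt after the stop codon, with 2.96 and 2.65 and no GGACT. The replicates kept the same order for these intervals, and both were above the 5′UTR interval of exon 1, which had 1.61 and 1.66. Peaks in replicate 1 alone had 1.29 over exons 7 and 8 and 1.73 in the 3′UTR. The annotated exon of another gene, Gm49338, overlapped the stop-codon peaks and the peak at 1.29. The lists give no strand, so the 2 genes cannot be told apart there.

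Psen2, a presenilin, had a shared interval at either end of its coding sequence. At the stop codon in exon 11 (chr1:180227497-180227719) the values were 2.89 in replicate 1 and 2.17 in replicate 2, with a GGACT site 76 nt before the stop codon. At the start codon in exon 2 they were 1.87 and 2.30. Replicate 1 was thus higher at the stop codon and replicate 2 at the start codon, and the order of the 2 intervals was not the same in both. A peak of replicate 1 alone had 2.87, the highest value of any unshared exonic peak of these genes, but only 11 of its 200 bases (5.50%) were exonic.

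Sorl1, the sorting receptor, had a single shared interval, and it was the strongest of the 33 in both replicates. It lay in the distal 3′UTR (chr9:41964973-41965450), its middle 3391 nt after the stop codon and its end 253 nt from the end of the transcript. The fold enrichment was 5.83 in replicate 1 and 4.48 in replicate 2. By the lower value, Sorl1 stood at percentile 97.1 of the genes with a shared interval. The interval covered 4.46% of the transcript and held 3 of its 23 GGACT sites, at positions 10060, 10252 and 10262. In contrast, the 6648-nt coding sequence with 14 GGACT sites had no exonic peak in either list. The only other peak of the gene was in replicate 1 at 1.35, in the 3′UTR.

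Apoe, a short gene with a 1408-nt transcript, had 65.3% of that transcript within shared intervals, the highest share of the 8. Exon 3 had 3.07 in replicate 1 and 1.85 in replicate 2. In exon 4 a broad peak of replicate 2 at 2.17 spanned 2 peaks of replicate 1, at 2.47 in the upstream part (chr7:19696821-19697157) and at 1.79 over the stop codon. Exon 3 thus ranked first in replicate 1 only. Exon 2 had a peak in replicate 2 alone, at 1.28. The only GGACT site of the transcript is in the 5′UTR and was in no shared interval, and 1 of 5 GGAC sites was.

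Mapt, which encodes tau, had 10 peaks in replicate 1 and 11 in replicate 2. Its longest coding sequence is annotated without UTRs, so positions are given on the longest complete transcript, Mapt-204. The strongest interval by the lower value lay in the 3′UTR (chr11:104330191-104330899), its middle 2358 nt after the stop codon, with 3.60 in replicate 1 and 2.62 in replicate 2. Closer to the stop codon, at 515 nt, an interval had 4.09 in replicate 1 but 1.76 in replicate 2. That log2 difference of 1.22 was the widest among the 33 shared intervals. The stop codon itself lay in an interval with 2.24 and 2.01. A further 3′UTR interval, 3258 nt after the stop codon, had 1.48 and 1.96.

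Within the coding part of tau, exons 3, 4 and 6 had shared peaks with values of 1.63 and 1.32, 1.77 and 1.46, and 1.79 and 1.81. The 5′UTR interval had 1.75 and 1.95. An interval in an exon that Mapt-204 lacks (chr11:104298969-104299121) had 2.14 and 1.68. These values were all below 2 in replicate 2, as were those of the 3′UTR intervals 515 and 3258 nt after the stop codon. Only the stop-codon interval and the strongest 3′UTR interval were above 2 in replicate 2. The strongest peak in 1 list was 1.71, in replicate 1 in the 3′UTR. Shared intervals held 6 of the 10 GGACT sites of the transcript, with 3 in the interval at 4.09 and 1.76 and 2 in that at 3.60 and 2.62. They covered 43.6% of the transcript. Over all genes with a shared interval, 28.8% of GGACT sites lay within shared intervals, which covered 19.8% of transcript bases.

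Across the genes, 5 of the 29 placed intervals held a GGACT (17.2%, Wilson interval 7.60 to 34.5), against 39.3% of all placed intervals. These 29 lie on the transcripts with the longest coding sequence, which leaves out the UTR intervals of Mapt, annotated there without UTRs. With Mapt on Mapt-204, 7 of 32 held a GGACT (21.9%, Wilson interval 11.0 to 38.8). GGAC was held by 21 of 29 (72.4%), against 76.7%, and by 23 of 32 (71.9%) with Mapt on Mapt-204. The intervals of these genes spanned a median of 203 nt of transcript, and all placed intervals 273 nt, and a longer span can hold more sites. Per kb of transcript within shared intervals, with Mapt on Mapt-204, the 8 genes had 1.47 GGACT sites, beside 1.61 over all genes with a shared interval. Outside shared intervals they had 1.33, beside 0.981. The sites were uneven among the genes, with none within the shared intervals of App, Aplp1 and Apoe and 6 within those of Mapt. When peaks under 2 were dropped from either list, 4 of 9 intervals on the transcripts with the longest coding sequence held a GGACT.

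Several peaks reached beyond the exons of the transcript they were placed on. Of the 32 placed intervals, 18 had bases outside the exons of their transcript, and exon 4 of Mapt made up 14.2% of its interval. These bases were not all in introns. The App exon 10 peaks lay wholly in annotated exons, in part of another transcript. The App and Aplp2 exon 1 intervals ran past the annotated 5′ ends of the genes. Why intervals reached beyond these exons, and how far it affected the fold enrichment over short exons, was not tested.

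Most other listed genes of amyloid and tau biology had shared peaks as well. In a list of 36 such genes, 30 (83.3%) had a shared exonic peak, where 45.6% of all protein-coding genes, expressed in brain or not, did. They were 7 of 9 secretase subunits and cofactors, 8 of 9 adaptors and sorting factors, 5 of 8 genes of uptake and breakdown, and 10 of 10 tau kinases and phosphatase. The highest lower values were in Dyrk1a, a kinase of tau, with 5.11 in replicate 1 and 4.36 in replicate 2 in coding exon 12. Apbb2, an adaptor that binds App, followed with 5.05 and 4.34 in its 3′UTR, and Cdk5r1, the activator of the tau kinase Cdk5, with 4.47 and 3.67, also in its 3′UTR. Aph1a, a gamma-secretase subunit, and Itm2b, a membrane protein that binds App, had no exonic peak in either list. A further 4 genes (Psenen, Mme, Ide and Trem2) had peaks but none that overlapped between replicates. The median of the strongest lower value was 2.68 over the 30 genes with a shared peak, beside 2.65 over all genes with a shared interval.

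**Figure D4:**
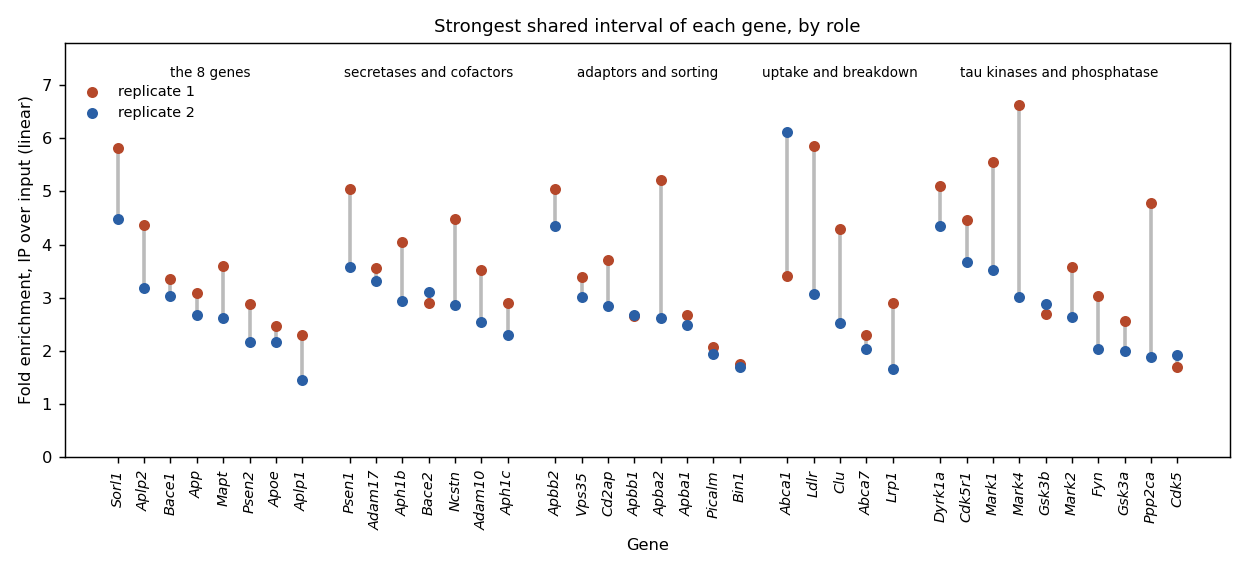
Fold enrichment of the strongest shared interval of each gene in replicate 1 and replicate 2 on a linear axis that starts at 0, for the 8 genes and the 30 listed genes with a shared peak, grouped by role. Grey lines join the replicates of a gene, and Sorl1 has the highest and Aplp1 the lowest values of the 8 genes in both replicates.

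The labelled tissue was checked with marker genes. Of 16 markers of neurons, astrocytes, oligodendrocytes and microglia, 15 had exonic peaks in both lists, and Trem2, a marker of microglia, had 1 in replicate 2 only. Each of those 15 had a shared interval, where 45.6% of all protein-coding genes had a shared exonic peak. A peak in either list was found for 12472 of all 21951 protein-coding genes, and the others had none. Of 6 markers of other tissues, 5 had no peak, whereas Myh7, a myosin of heart and slow muscle, had 3 shared intervals, the strongest with 4.33 in replicate 1 and 2.43 in replicate 2. Why Myh7 had peaks was not tested. The lists hold no expression values, so a missing peak does not show a missing transcript, and the check is coarse.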

How the data were processed

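m6A-seq of 2 IP and 2 input samples was used. The authors trimmed reads with Cutadapt and Trimmomatic, aligned them to mm10 (TopHat2 2.0.9 in the submitters' processing notes, another TopHat version in the methods), kept uniquely mapped reads and called peaks with MACS2 for each IP replicate against its own input, with no fragment-size model, duplicates retained and a limit on the false discovery rate. The deposited value of each peak is a ratio, its linear fold enrichment in the IP over the input. Kept duplicates can raise this ratio, and low input coverage makes it depend on the caller. The input samples came without files and enter only through the ratio.

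Both ends of a peak were counted, the shortest peak being 200 nt. Peaks were shared when they overlapped by at least 1 bp, as checked with bedtools 2.31.1. Pairs were best partners of each other. Intervals were placed on the spliced transcript with the longest coding sequence (21866 transcripts), and motifs were searched there, on the transcript strand. Percentiles of genes are taken among those with a shared interval. Python 3.11.15, pandas 2.3.3 and Biopython 1.88 were used, and the overlap and transcript-placement functions were tested on simulated data. The motif search and the final pairing step were not tested in this way. For each gene the shared interval with the largest lower value and the strongest peak in 1 list were named. Of the listed genes, the 3 with the largest lower value and those without a peak were named. The genes, lists and rules were chosen with earlier results of these data known. Alternatives were overlap rules, a minimum fold enrichment of 2, merging, stop-codon windows, motifs, transcript choice and 1 list at a time.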

Additional observations from a re-analysis of the deposited data

Results flagged for a closer look

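Peaks within introns were outside the comparisons above. Replicate 1 had 3 such peaks in these genes, reported because they are signal in data that the exon rule left out. App had 1 with a fold enrichment of 3.42 (chr16:85161544-85161845), Bace1 1 with 2.33 (chr9:45849272-45849662) and Mapt 1 with 1.79 (chr11:104315154-104315428). None overlapped a replicate 2 peak or an annotated exon of another gene.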

How the results depend on the processing

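Of 60 alternative values of 10 results, 51 stayed within the spread or count limit set for them, 9 moved and 0 reversed. A minimum fold enrichment of 2 in both lists moved most. It left 10 shared intervals, with Aplp1 losing its own, shared fractions of 50.0% in replicate 1 and 90.9% in replicate 2, medians of 3.22 and 2.64, and GGACT in 44.4% of intervals, which by construction are fewer and stronger. With midpoints within 100 bp, 69.2% of replicate 1 peaks were shared. With GGAC in place of GGACT, 72.4% of the 29 intervals on the transcripts with the longest coding sequence held the motif, and with DRACH 100% did. The Mapt 5′UTR interval, which is not among these 29, held no DRACH site. The DRACH share over all placed intervals is not given here, so the 100% has no value to stand beside. With Mapt placed on its longest complete transcript, an alternative added after seeing the data, 5 of 32 intervals (15.6%) lay near the stop codon and 7 of 32 (21.9%) held GGACT. With either list alone, 39 to 43 peaks stood in place of shared intervals, and all 8 genes had a peak. No paired analysis was possible because the input samples that share replicate numbers with the IP samples came without files and no result comes from a test. Depth limits every value in a way that the lists do not show.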
